A study of Homo sapiens with 8 samples.

Results

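Medium spiny neurons are the GABA-releasing projection neurons that make up most of the striatum, and 10 genes used to recognise them or their precursors are described here: PPP1R1B, FOXP1, FOXP2, EBF1, MEIS2, ISL1, SIX3, ZNF503, RXRG and TAC1. They were taken by name from the 60286 genes of a single-cell count matrix, and each has 1 row in it. The cells came from cultures grown from the embryonic stem cell line H1, an established human line, so every group shares its genotype. A split-pool method barcoded 43693 fixed cells, which were sequenced as 8 sublibraries of a single pool. Each cell carries 1 of 46 culture tags in 17 groups, and the tags, not the cells, were the units compared.

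The tag names give the arrangement and, for some, the treatment. Flat (2-D) cultures named 2DMono (6 tags) and 2DCocu (12 tags) and 3-D cultures named 3DMono (6 tags) and 3DFusi (10 tags) each had a Vehic group. The Mono cultures also had AcDop and AcMor groups of 2 tags each, beside 2 Vehic tags. In 2DCocu the AcCoc, AcMor and Vehic groups had 4 tags each, and in 3DFusi they had 4, 3 and 3. Cultures whose names carry no treatment, 2DProto2Fjo, 2DProto3Wu and 2DProto4Nic, had 2 tags each, and 3DProto1For and 3DProto2Xia had 3 each. The labels list dopamine, cocaine, morphine and untreated cultures for all sublibraries jointly and do not spell the tag names out, nor do they give an age in culture. Each 3-D preparation pooled 2 to 3 organoids. No source used here says whether tags of a group were separate cultures, so the p-values measure the spread between tags, which may be technical.

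In the striatum these neurons receive dopamine and cortical input and form a direct population, which projects to the midbrain, and an indirect one, which acts through the pallidum. They arise in the lateral ganglionic eminence of the embryonic forebrain. MEIS2, FOXP1, FOXP2 and ZNF503 are transcription factors of the whole lineage, EBF1 and ISL1 act in the direct population and SIX3 in the indirect one. RXRG is a retinoid receptor, PPP1R1B (the protein is called DARPP-32) relays dopamine signals inside mature neurons, and TAC1 encodes the precursor of substance P, a peptide of the direct population. None of the 10 genes is restricted to the striatum: FOXP2 and EBF1 are known in mesenchyme, ISL1 in motor neurons and SIX3 in the eye and ventral forebrain.

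The sequences just before the starts of EBF1, ISL1 and TAC1, the direct-population genes of the set, are shown. They are the 250 bases before each gene's start in RefSeq on GRCh38.p14, which had such entries for 8 of the 10 genes. RefSeq places these starts elsewhere than the GENCODE v29 positions given further on: the EBF1 window lies inside the GENCODE span of the gene, and the ISL1 and TAC1 windows run past the GENCODE starts. Capitals mark TAATTA, a homeodomain core that reads alike on both strands.
EBF1 (chr5:159097957-159098206, minus strand): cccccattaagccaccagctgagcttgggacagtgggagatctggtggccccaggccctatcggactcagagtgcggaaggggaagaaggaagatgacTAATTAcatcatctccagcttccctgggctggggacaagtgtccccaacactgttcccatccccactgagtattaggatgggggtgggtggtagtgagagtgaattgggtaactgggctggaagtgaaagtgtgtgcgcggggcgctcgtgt
ISL1 (chr5:51383198-51383447, plus strand): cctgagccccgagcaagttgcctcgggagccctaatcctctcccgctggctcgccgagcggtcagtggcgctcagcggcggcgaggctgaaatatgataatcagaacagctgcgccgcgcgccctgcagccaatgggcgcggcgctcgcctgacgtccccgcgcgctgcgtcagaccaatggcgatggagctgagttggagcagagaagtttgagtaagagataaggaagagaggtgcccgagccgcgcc
TAC1 (chr7:97731836-97732085, plus strand): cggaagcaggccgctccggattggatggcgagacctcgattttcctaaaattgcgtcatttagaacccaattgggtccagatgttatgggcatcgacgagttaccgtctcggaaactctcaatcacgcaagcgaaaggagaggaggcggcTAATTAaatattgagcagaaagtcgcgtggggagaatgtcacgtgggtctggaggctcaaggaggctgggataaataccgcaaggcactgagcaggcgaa
TAATTA was found at position -152 of EBF1 and -100 of TAC1, counted from the start, and in 1227 of 27305 windows of the same length (4.49%). TGACAG, a MEIS core searched on both strands, was found in RXRG at -8 and in 13.07% of all windows. TGTTTAC, a forkhead core, was found in none of the 8 windows and in 2.98% of all. The EBF half-sites CCCNNGGG were found in FOXP1 at -125 and in 16.61% of all. The GC content was 57.2% for EBF1, 65.2% for ISL1 and 52.4% for TAC1, against a median of 58.0% over all windows, and these matches are descriptions of letters only.

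The cells had a median of 12776 counts, and the tags held 317 to 1959 cells and 3624668 to 58777176 counts. Of 41192 barcodes, 2393 occurred in more than 1 sublibrary (4894 cells) and 0 in more than 1 tag. Summed profiles set 3 tags apart from their names over 20199 genes: 3DProto1For3 was closest to 3DProto2Xia3 (r = 0.979), 3DProto2Xia2 to 3DProto1For2 (r = 0.973) and 3DFusiAcCoc2 to 3DMonoAcMor2 (r = 0.974). The mean r of 3DFusiAcCoc2 with the tags of its own group was 0.936. These tags are called the tags labelled so, and results that rest on the 2 Proto tags are given with and without them.

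MEIS2, a homeodomain transcription factor (15:36889204-37101299, minus strand, in the GENCODE v29 positions on GRCh38), had an entry in 78.8% of cells. FOXP1 (3:70952817-71583993, minus strand) and FOXP2 (7:114086327-114693772, plus strand), forkhead repressors, had entries in 52.4% and 42.6% of cells. EBF1 (5:158695916-159099761, minus strand) had one in 28.3% and SIX3 (2:44941898-44946077, plus strand) in 10.8%. The other 5 genes were rare: RXRG (1:165400917-165445355, minus strand) in 3.8% of cells, ZNF503 (10:75397830-75401906, minus strand) in 3.59%, ISL1 (5:51383391-51394738, plus strand) in 2.80%, PPP1R1B (17:39626740-39636626, plus strand) in 2.79% and TAC1 (7:97731908-97740472, plus strand) in 1.18%. An entry is an estimated count of at least 0.5. Requiring at least 1 left FOXP1 in 44.2% of cells and ZNF503 in 1.39%. FOXP1, FOXP2, EBF1, MEIS2 and ZNF503 each overlap annotated genes on the other strand, and no source used here says whether counting used the strand, so their values are uncertain.

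Levels below are CPM (counts of a gene per 1e6 counts of a tag's cells, summed), and in such sums fewer cells of a type and less RNA per cell cannot be told apart. Values are given by arrangement as the lowest, median and highest tag.

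**Figure D1:**
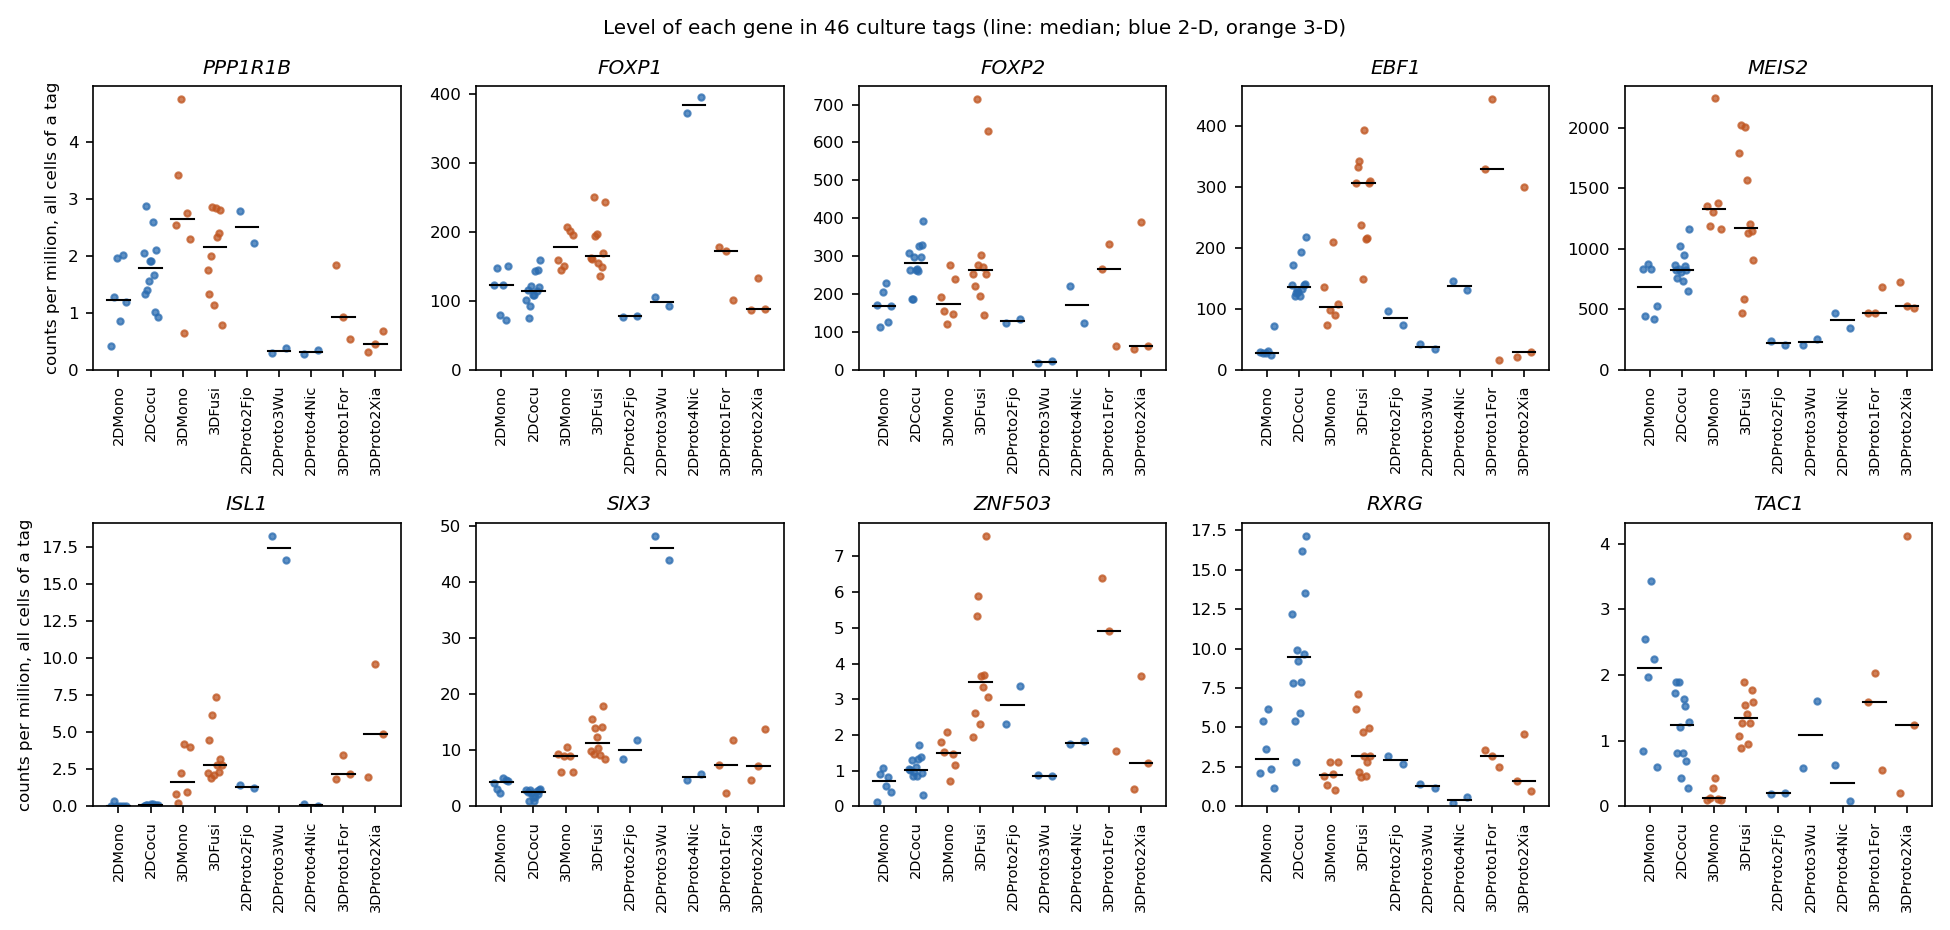
Level of each of the 10 genes in the 46 culture tags by arrangement, as CPM of the tag's summed counts over all cells, with 1 point per tag, the median as a line, blue for 2-D and orange for 3-D. ISL1 lies near 0 in 2DCocu and 2DMono and highest in 2DProto3Wu, and TAC1 is lowest in 3DMono among the 4 treated arrangements.

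ISL1 in 2DProto3Wu stood at 18.2 and 16.6 CPM. In 3DFusi it ran from 1.94 through 2.81 to 7.35 CPM, and in 3DMono from 0.205 through 1.63 to 4.20. The 2DCocu tags had 0 to 0.199 CPM and the 2DMono tags 0 to 0.392, from 10.3 and 7 counts in all. ISL1, a LIM homeodomain factor, was therefore close to its detection floor in both flat treated arrangements, while the 2 tags of 2DProto3Wu lay above every other tag. SIX3, a homeodomain factor of the ventral forebrain, had the same top group, with 48.3 and 43.9 CPM in 2DProto3Wu. Its range was 8.48 to 17.9 CPM in 3DFusi, 6.16 to 10.6 in 3DMono, 2.43 to 5.15 in 2DMono and 0.901 to 3.14 in 2DCocu. In that order of the 4 treated arrangements, neighbours overlapped for SIX3 except 3DMono and 2DMono.

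EBF1, a helix-loop-helix factor, ran from 149.7 through 307 to 393 CPM in 3DFusi and from 24.0 through 28.6 to 71.4 in 2DMono. The 2DCocu tags (121 to 219 CPM) and the 3DMono tags (74.0 to 210) overlapped. It was uneven within both 3-D Proto trios, at 330, 444 and 16.8 CPM in the 3 tags labelled 3DProto1For and 20.5, 300.2 and 29.3 in those labelled 3DProto2Xia. The lone high or low tag of each trio is one of the 2 whose profile lay closest to the other arrangement.

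MEIS2 was highest in the treated 3-D arrangements, with medians of 1175 CPM in 3DFusi (474 to 2022) and 1329 in 3DMono (1160 to 2242). It was lower in 2DCocu (648 to 1166) and 2DMono (424 to 873), and lowest in 2DProto2Fjo (202 and 242) and 2DProto3Wu (205 and 254). FOXP1 stood at 372 and 395 CPM in 2DProto4Nic, above the highest tag of any other arrangement, which was 250.5 in 3DFusi. FOXP2 was lowest in 2DProto3Wu, at 19.3 and 22.5 CPM. In 3DFusi it ran from 146 to 714, and its 10 tags overlapped those of the other 3 treated arrangements.

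ZNF503, a zinc finger factor of striatal precursors, had a median of 3.5 CPM in 3DFusi (1.95 to 7.58) and 1.03 in 2DCocu (0.327 to 1.73). RXRG was highest in 2DCocu, with a median of 9.45 CPM and a range of 2.79 to 17.1. PPP1R1B was low in all arrangements, with medians of 2.65 CPM in 3DMono, 2.16 in 3DFusi, 1.79 in 2DCocu and 1.23 in 2DMono, and these 4 overlapped. TAC1 had medians of 2.11 CPM in 2DMono, 1.35 in 3DFusi, 1.25 in 2DCocu and 0.127 in 3DMono.

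The cells were clustered without the 10 genes, and clusters were named from fixed marker lists that hold none of them. Named neuron-like classes were GABAergic (5972 cells), excitatory (6571), motor or cholinergic (786) and glycinergic (212), and 14813 cells (33.9%) stayed unnamed. Clusters carry numbers, and levels in them are descriptions with no test. The lists and clusters place the 10 genes in different cells, so the set as a whole does not mark 1 cell type here.

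PPP1R1B was lower in GABAergic-like cells (0.498 CPM) than in excitatory-like (4.38) or mesenchymal-like cells (2.78), and 30.2% of all its counts lay in the excitatory-like class against 2.62% in the GABAergic-like one. With every cell thinned to 5000 counts it had an entry in 0.195% of GABAergic-like cells, 1.81% of excitatory-like and 1.09% of mesenchymal-like cells. The median depths of these 3 classes before thinning were 10148, 11629 and 14654 counts. For this gene of mature striatal neurons the share of GABAergic-like cells was thus below that of both other classes. Its highest clusters, 2 and 21, at 5.87 and 4.78 CPM, are both excitatory-like.

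ISL1, SIX3 and TAC1 had higher levels in GABAergic-like than in excitatory-like or mesenchymal-like cells. ISL1 had 12.8 CPM there, 0.318 in excitatory-like and 1.55 in mesenchymal-like cells, and 49.5% of its counts were GABAergic-like. Cluster 7, mostly from 2DProto3Wu, held 36.5% of all ISL1 counts. The 12.8 CPM is pooled over tags, and the mean over 31 tags was 6.31 CPM and the median 4.17. Levels of 10.1 CPM in motor or cholinergic-like and 21.1 in muscle-like cells show ISL1 in its other known tissues as well. SIX3 had 32.8 CPM in GABAergic-like against 2.61 in excitatory-like cells, and TAC1 3.35 against 0.337. These values are pooled too. Over 31 tags the GABAergic-like mean and median were 23.4 and 19.3 CPM for SIX3 and 4.78 and 1.42 for TAC1. The GABAergic-like class held 34.3% of SIX3 counts and 30.6% of TAC1 counts, less than the unnamed cells, with 41.5% and 41.45%. In thinned cells the GABAergic-like and excitatory-like shares were 4.73% and 0.0946% for ISL1, 11.9% and 0.931% for SIX3, and 0.906% and 0.142% for TAC1.

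FOXP1, FOXP2 and EBF1 had higher pooled levels in mesenchymal-like than in GABAergic-like or excitatory-like cells. EBF1 had 534 CPM in mesenchymal-like, 199.5 in GABAergic-like and 30.2 in excitatory-like cells. Its GABAergic-like level ran from 0 through 45.9 to 1034 CPM over 31 tags, and some neurons were close to or above the mesenchymal-like level: it was 488.4 CPM in the 212 glycinergic-like cells and 560.5 in GABAergic-like cluster 3. FOXP2 had 609, 181 and 71.9 CPM, and FOXP1 312, 65.6 and 44.7, in the order mesenchymal-like, GABAergic-like, excitatory-like. Neither was particular to mesenchymal-like cells: the 629 ciliated or ependymal-like cells had 609.7 CPM of FOXP2 and 333.2 of FOXP1, but 72.9 of EBF1. The 42 endothelial-like cells had 369.6 CPM of FOXP1 and 49.0 of FOXP2. The mesenchymal-like class, 8.12% of cells, held 33.8% of all EBF1 counts, 28.5% of FOXP2 and 19.8% of FOXP1. MEIS2 was highest in GABAergic-like cells (1719 CPM, against 535 in excitatory-like and 553 in mesenchymal-like), although its thinned shares of cells were close, at 69.3%, 71.1% and 61.8%.

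**Figure D2:**
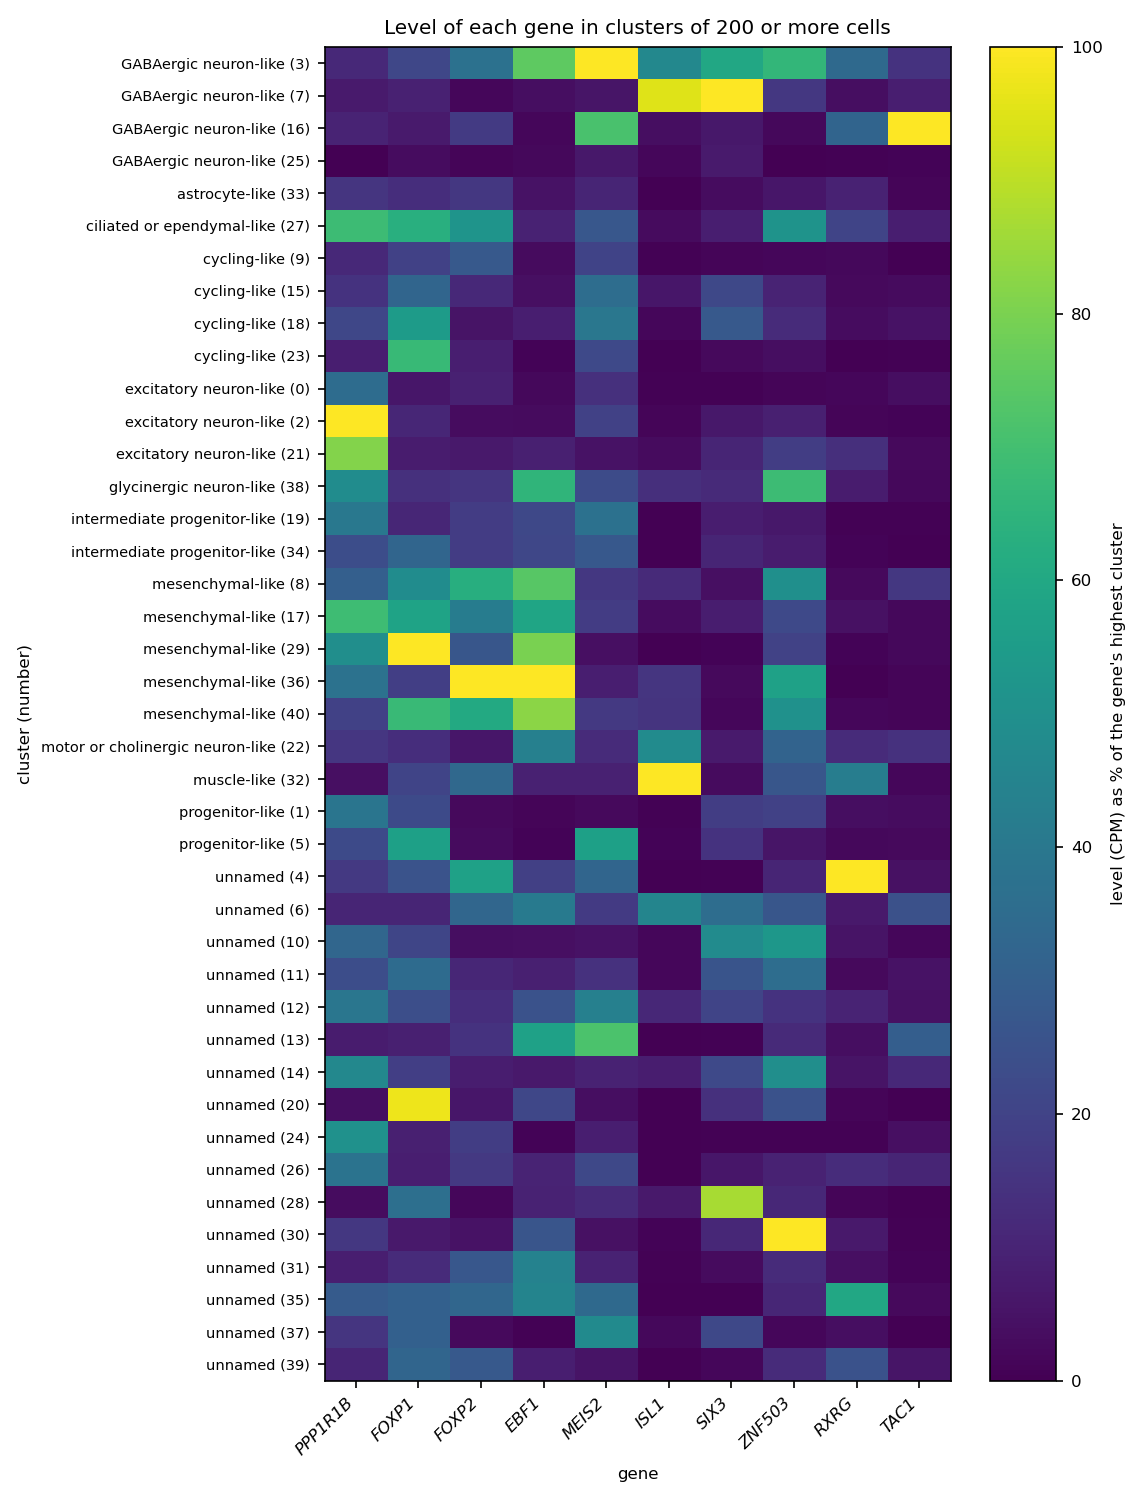
Level of each of the 10 genes (columns) in each cluster of 200 or more cells (rows, with class and number), as CPM of the cluster's summed counts shown as a percentage of that gene's highest cluster. PPP1R1B is highest in excitatory-like cluster 2, EBF1 and FOXP2 in mesenchymal-like cluster 36, and MEIS2 in GABAergic-like cluster 3.

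Cluster 3 (2341 cells), with GAD1, GAD2 and DLX6-AS1 among its 10 leading genes, had the highest MEIS2, EBF1, FOXP2 and FOXP1 levels among the GABAergic-like clusters. It had 3798 CPM of MEIS2, 560.5 of EBF1, 438.4 of FOXP2, 112 of FOXP1 and 28.9 of SIX3. The rarer RXRG, ISL1 and ZNF503 stood at 12.9, 9.84 and 6.53 CPM. TAC1, the direct-population peptide gene, had 2.23 CPM and PPP1R1B 0.671. Of its cells, 1332 came from 3DFusi and 944 from 3DMono.

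Within cluster 3, EBF1 was 681 ± 292 CPM in 3DFusi (SD, n = 9 tags with at least 20 of its cells) and 258 ± 170 in 3DMono (SD, n = 6). TAC1 was 2.41 ± 2.31 and 0.378 ± 0.602 CPM in the same order, and ZNF503 8.36 ± 5.80 and 2.56 ± 2.41. MEIS2 was alike within its spread, at 4020 ± 441 and 4062 ± 910 CPM, and FOXP2 was 400 ± 106 and 531 ± 156. These are levels with no test.

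A few other clusters held single genes at high levels. Cluster 16, with NXPH1 and SCGN among its leading genes and 643 of its 964 cells from 2DMono, had 15.35 CPM of TAC1 and 2714 of MEIS2 but 12.4 of EBF1. In its 2DMono cells TAC1 was 20.4 ± 14.4 CPM (SD, n = 6 tags) and ISL1 was 0. Cluster 7, with LHX8 and LHX6, genes of the medial ganglionic eminence, among its leading genes, had 48.2 CPM of SIX3 and 20.1 of ISL1, and 1526 of its 1917 cells came from 2DProto3Wu. Cluster 4, unnamed and led by genes including ALDH1L1, had 37.85 CPM of RXRG and 670 of FOXP2, and 2212 of its 2221 cells were 2DCocu.

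**Figure D3:**
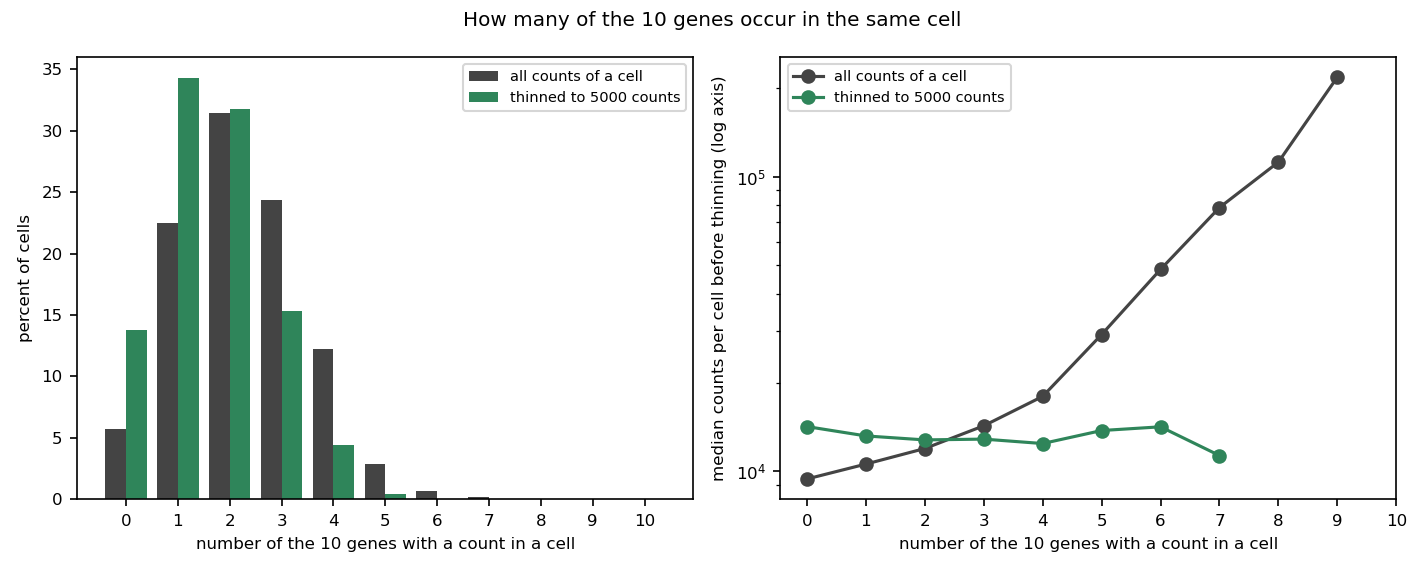
Left, percent of cells by how many of the 10 genes they hold, with all counts (dark) and with cells thinned to 5000 counts (green). Right, the median counts per cell before thinning for each number of genes, on a log axis: it climbs from 9419 with 0 genes to 218137 with 9 when all counts are used, and stays nearly level when genes are read in thinned cells.

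A cell held a median depth of 9419 counts when it had none of the 10 genes and 48494 when it had 6 of them, so the number of genes per cell moved with depth. In all, 41183 cells had at least 1 gene, 6970 (15.95%, 95% exact Clopper-Pearson interval 15.6 to 16.3%) had 4 or more and 365 (0.835%, 0.752 to 0.925%) had 6 or more. Thinned to 5000 counts, which left out 1360 shallower cells, 2044 of 42333 cells (4.83%) had 4 or more and 18 had 6 or more. The intervals cover counting error only. Of the cells with 6 or more genes, 20.5% lay in cluster 12, whose median depth was 28011 counts and in which 5.33% of cells were called doublets. A further 15.9% lay in cluster 3. With called doublets removed, 353 cells had 6 or more genes. In thinned cells, 6 or more were held by 0.494% of the 2227 cells of cluster 3. The shares were 0.481% of the 208 cells of mesenchymal-like cluster 40 and 0.078% of the 1284 of cluster 12. These are shares within a cluster that rest on few cells, so they do not rank the clusters and are not comparable with the 20.5% and 15.9%. The share made by doublets or depth was not tested beyond this.

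Among the named classes, mesenchymal-like cells most often held 4 or more of the genes: 21% of thinned mesenchymal-like cells did, against 4.74% of GABAergic-like and 0.268% of excitatory-like ones. The GABAergic-like clusters were uneven, at 10.73% in cluster 3 and 0.84%, 1.41% and 0% in clusters 7, 16 and 25. Unnamed clusters 4 and 35 had 15.56% and 16.56%, and the mesenchymal-like clusters 15.59 to 31.25%. Combinations that also require GAD1 or GAD2 are higher in GABAergic-like cells by construction, since those genes helped to name the class, and their class shares are given as a description. FOXP1, FOXP2, MEIS2 and a GAD gene occurred together in 4.23% of thinned GABAergic-like cells, 1.73% of mesenchymal-like, 2.92% of cycling-like and 0.110% of excitatory-like cells. SIX3, MEIS2 and a GAD gene occurred together in 6.00% of GABAergic-like and 0.0631% of excitatory-like cells.

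Combinations with the mature genes were few. PPP1R1B with a GAD gene was seen in 376 cells, and in 42 after thinning. TAC1 with a GAD gene and FOXP1 or FOXP2 was seen in 189 cells, and in 24 after thinning. EBF1, ISL1 and a GAD gene met in 347 cells, and in 82 after thinning. FOXP1, FOXP2, MEIS2 and a GAD gene were joined in 2953 cells (6.76%) and 685 (1.62%), of which 2074 and 343 also had BCL11B, a zinc finger factor of medium spiny neurons. DRD1 and DRD2, the dopamine receptors that define the direct and indirect populations, had entries in 0.520% and 3.81% of cells.

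Pairs were read in thinned cells. EBF1-positive cells had FOXP2 in 50% of cases against 25.6% of cells without EBF1. RXRG-positive cells had FOXP2 in 59.0% against 30.2%, and MEIS2 in 83.5% against 68.0%. ISL1-positive cells had SIX3 in 12.8% against 3.98% and EBF1 in 32.8% against 20.5%. The pair shares so far are pooled over all classes and cultures, and the part of class and culture in them was not tested. Within GABAergic-like cells, EBF1-positive ones had MEIS2 in 90.5% and FOXP2 in 37.5%, the latter against 15.8% without EBF1. PPP1R1B and ISL1 shared 0 thinned cells, which allows up to 0.00709% of cells with entries of both at this depth and sets no limit on cells that express both.

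**Figure D4:**
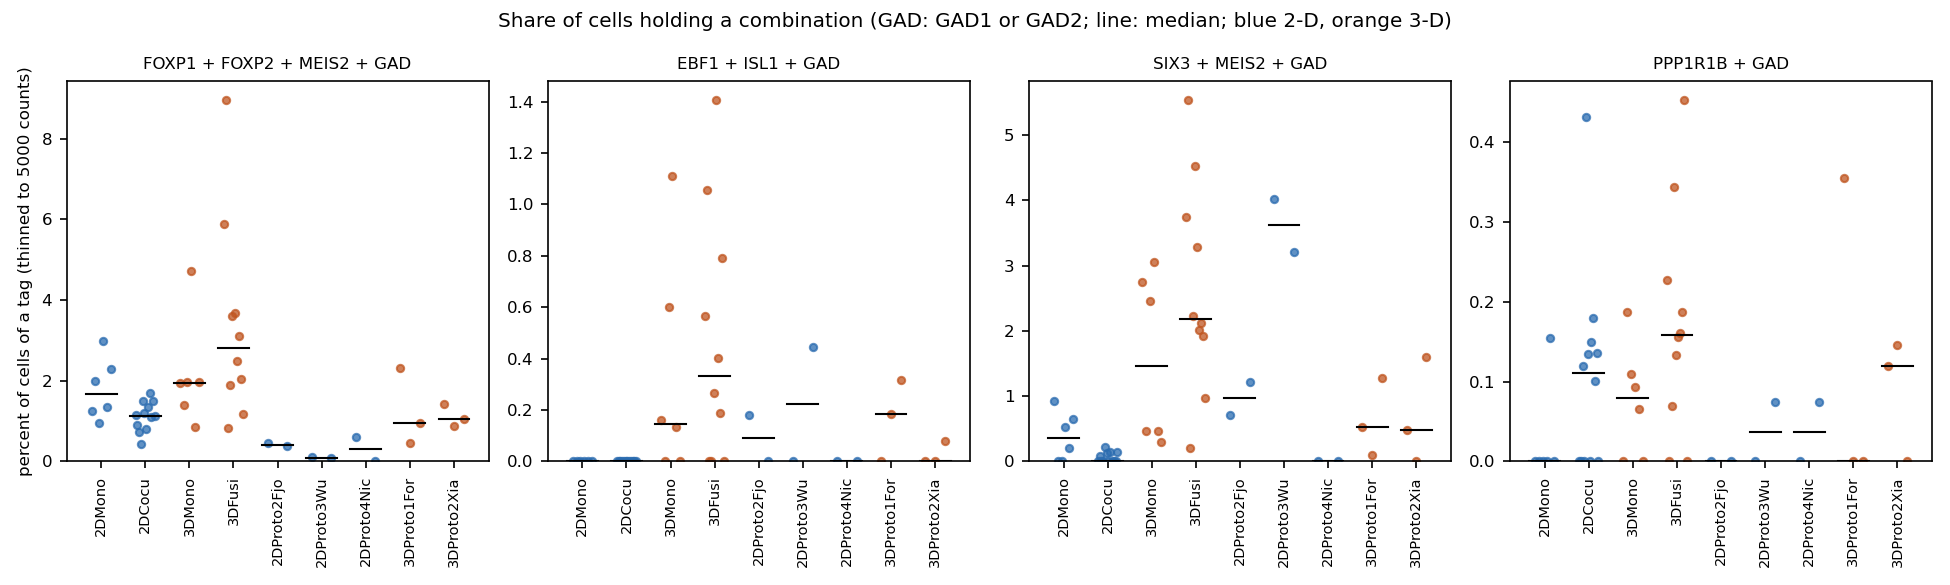
Percent of each tag's cells, thinned to 5000 counts, that hold 4 combinations of the genes with GAD1 or GAD2, with 1 point per tag, the median as a line, blue for 2-D and orange for 3-D. EBF1 with ISL1 is at 0 in every 2DMono and 2DCocu tag, and SIX3 with MEIS2 is highest on average in 2DProto3Wu.

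By arrangement, 8.48 ± 3.42% (SD, n = 10 tags) of thinned 3DFusi cells held 4 or more genes, 5.80 ± 2.77% (n = 12) of 2DCocu, 3.67 ± 1.04% (n = 6) of 3DMono and 2.01 ± 0.623% (n = 6) of 2DMono cells. FOXP1, FOXP2, MEIS2 and a GAD gene were joined in 3.37 ± 2.45% of 3DFusi, 2.15 ± 1.34% of 3DMono, 1.81 ± 0.765% of 2DMono and 1.13 ± 0.366% of 2DCocu cells. SIX3, MEIS2 and a GAD gene were joined in 3.62 ± 0.576% of 2DProto3Wu, 2.66 ± 1.62% of 3DFusi and 0.0603 ± 0.0799% of 2DCocu cells. In the first 2 of these orders the spreads (1 SD) of neighbours overlapped, and in the third those of 2DProto3Wu and 3DFusi did. Cell makeup differed too, with 4.15 to 50.84% mesenchymal-like cells in the 3DFusi tags and 1.86 to 7.5% in those of 2DCocu. Its part in these shares was not tested.

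3-D culture was compared with flat culture in the Mono arrangements. In 3DMono, EBF1, MEIS2 and SIX3 were higher than in 2DMono and RXRG was lower. With ISL1 and TAC1, 6 of the 10 genes passed, where 37% of all genes tested passed (17.1% higher, 19.9% lower) in edgeR's quasi-likelihood test with Benjamini-Hochberg adjustment. ISL1, with 7 counts in all 2DMono tags, and TAC1, with 27 in all 3DMono tags against 219 in 2DMono, were kept by the low-count filter through 1 side alone, so their calls are no support and no fold is given. The log2 fold change was +1.60 ± 0.295 for EBF1 (SE, adjusted p = 0.00106), +0.97 ± 0.146 for MEIS2 (adjusted p = 0.000134) and +0.87 ± 0.222 for SIX3 (adjusted p = 0.0069). RXRG fell by 0.98 ± 0.324 on the log2 scale (adjusted p = 0.0292). TAC1 levels were 0.094 to 0.434 CPM in 3DMono and 0.597 to 3.43 in 2DMono. The EBF1, MEIS2, SIX3 and TAC1 tags did not overlap between the arrangements, while for ISL1 and RXRG they did. The share of all genes without overlap is not given, so overlap here and below is a description and no support. FOXP1 (+0.43, adjusted p = 0.0681), PPP1R1B (+0.79, 0.165), ZNF503 (+0.76, 0.0982) and FOXP2 (-0.00, 0.989) did not pass. With no filter on low counts FOXP1 (adjusted p = 0.000231), PPP1R1B (0.0117) and ZNF503 (0.0494) passed too, 9 of 10 in all, ISL1 and TAC1 included. The share of all genes that passed without the filter is not given here, so this count is no support. RXRG lost its call in 7 of the 12 fits that left out 1 tag (adjusted p = 0.0564 to 0.102), and the Vehic tags alone left 3 genes called: ISL1, MEIS2 and TAC1. The median over the 10 genes, ISL1 and TAC1 included, was 0.773 on the log2 scale against 0.0303 over all genes. The members were chosen with earlier results known, so this is a description and no support.

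**Figure D5:**
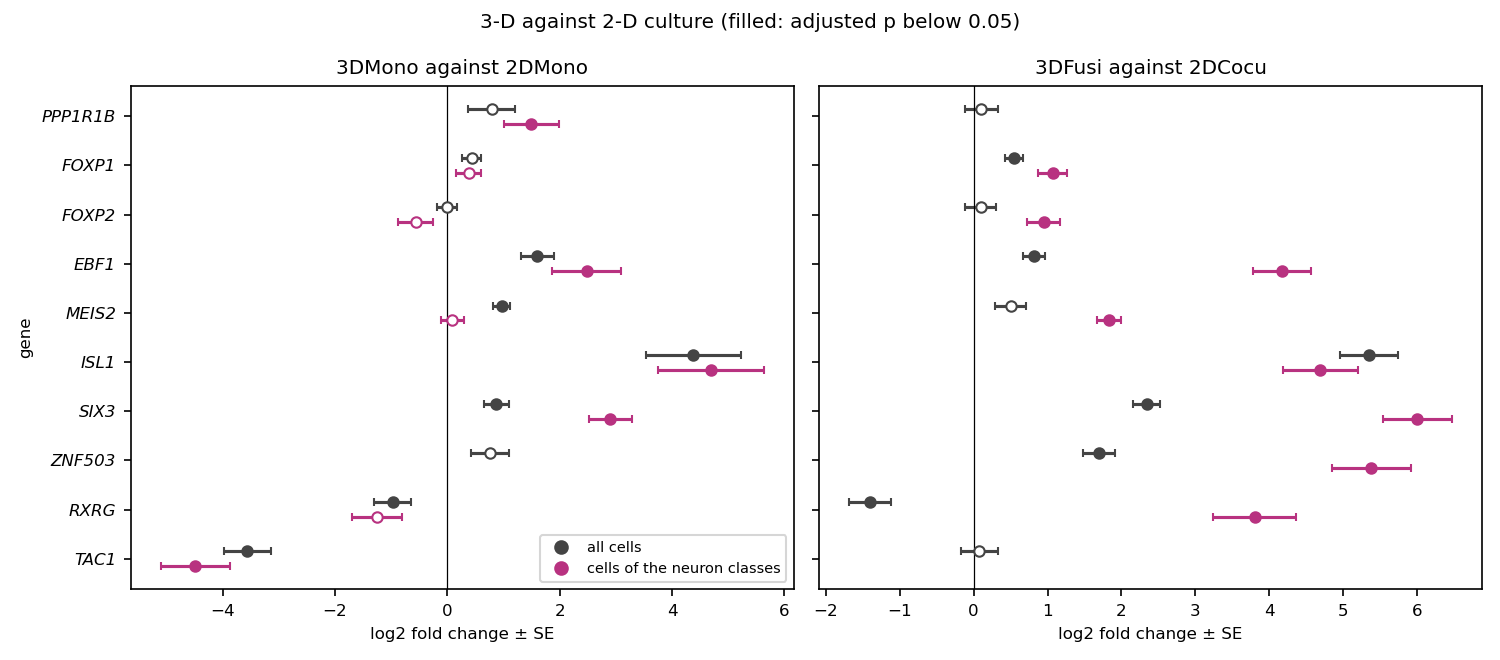
Log2 fold change ± SE of each gene in 3DMono against 2DMono (left) and 3DFusi against 2DCocu (right), for all cells (dark) and for neuron-like cells (magenta), filled where the adjusted p is below 0.05. SIX3 and EBF1 lie above 0 in both panels, as does ISL1, whose values rest on 10.3 or fewer counts in the flat cultures, the left-hand TAC1 values rest on 27 or fewer counts in 3DMono, RXRG changes sign between all cells and neuron-like cells on the right, and the right-hand neuron-like values of ISL1, SIX3, ZNF503 and RXRG rest on 1 to 6 counts in 2DCocu.

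In 3DFusi against 2DCocu, ISL1, SIX3, ZNF503, EBF1 and FOXP1 were higher and RXRG was lower. These 6 of 10 stand against 48.3% of all genes (25.2% higher, 23.1% lower). ISL1 had 10.3 counts in all 2DCocu tags and was kept by the filter through 3DFusi, so its call is no support and its fold is not given. SIX3 rose by 2.34 ± 0.179 (adjusted p = 3.84e-10) and ZNF503 by 1.7 ± 0.218 (1.21e-06) on the log2 scale. No tag of SIX3 or ZNF503 overlapped between the arrangements, nor of ISL1 with its few 2DCocu counts, again as a description. EBF1 rose by 0.82 ± 0.149 (adjusted p = 9.84e-05) and FOXP1 by 0.55 ± 0.117 (0.000512), and RXRG fell by 1.40 ± 0.283 (0.000301), with overlapping tags. Mesenchymal-like cells, with their high EBF1 and FOXP1 levels, were 4.15 to 50.84% of the 3DFusi tags and 1.86 to 7.5% of the 2DCocu tags. The part of this makeup in the differences was not tested. With the Vehic tags alone FOXP1 did not pass (+0.373, adjusted p = 0.118). MEIS2 (+0.50, adjusted p = 0.0549) passed with DESeq2 and with RLE normalization. FOXP2, PPP1R1B and TAC1 did not pass, at +0.09, +0.11 and +0.08.

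The difference between these 2 differences, a comparison chosen after seeing the data over the AcMor and Vehic tags, was -1.42 for SIX3 (adjusted p = 0.0125), the Mono difference minus the Fusi one. TAC1 passed as well, but the 3DMono tags used hold 24 of its counts and it was kept by the filter through the other arrangements, so its call is no support. The other 8 genes did not pass, where 9.15% of all genes did (3.91% higher, 5.23% lower).

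Within neuron-like cells the comparison was repeated on tags with at least 20 such cells. Unnamed clusters were left out, also those with neuron markers. Among them were cluster 13, led by SLC6A5 and PAX2 of the glycinergic list, with 1174 2DCocu cells, and cluster 24, with 394 2DCocu and 377 2DMono cells. The clusters that make up these cells differ: 94.3% of 2DCocu neuron-like cells were cluster 0, an excitatory-like cluster, and 2DMono had 63.1% in cluster 0 and 34.3% in cluster 16. In 3DMono, 59.5% were cluster 2 and 35.6% cluster 3, and in 3DFusi 39.2% were cluster 3, 24.1% cluster 2 and 19.9% cluster 22. In 3DMono neuron-like cells EBF1 was higher than in 2DMono. With ISL1, PPP1R1B, SIX3 and TAC1, 5 of 9 tested passed, where 24.6% of all genes passed (11.5% higher, 13.1% lower). ISL1, SIX3 and PPP1R1B, with 2, 23 and 38 counts in 2DMono neuron-like cells, and TAC1, with 12 in those of 3DMono, were kept by the filter through 1 side alone, so these 4 calls are no support. EBF1 was 106 ± 95.4 against 16 ± 7.38 CPM (SD, n = 6 and 6 tags; log2 fold change +2.48). TAC1 was 0.296 ± 0.265 against 6.87 ± 5.91 CPM, and PPP1R1B 4.52 ± 1.99 against 1.17 ± 1.17 CPM. MEIS2, which passed over all cells, did not pass here (+0.09, adjusted p = 0.799). With no filter on low counts FOXP1 (+0.455), FOXP2 (-0.503) and RXRG (-1.17) passed too (edgeR, adjusted p = 0.000664 to 0.0339). PPP1R1B did not pass with clustering at resolution 0.4 (adjusted p = 0.0884). The EBF1 call was lost in 3 of 12 fits without 1 tag, those without the second AcDop or either AcMor tag of 2DMono (adjusted p = 0.05 to 0.0618).

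Neuron-like cells of 3DFusi had more EBF1, MEIS2, FOXP1 and FOXP2 than those of 2DCocu. All 8 genes tested passed as higher, but 4 of them had 1 to 6 counts in 2DCocu neuron-like cells and were kept by the filter through 3DFusi, so the count is no support, and PPP1R1B and TAC1 were not tested. Here 44.2% of all genes passed (24.3% higher, 20% lower). EBF1 was 334 ± 159 CPM (SD, n = 10 tags) against 21.9 ± 19.6 (n = 12), with a log2 fold change of +4.17. RXRG was 4.97 ± 2.96 against 0.249 ± 0.368 CPM, while over all cells it was lower in 3DFusi, and the unnamed cells held 59.2% of its counts. MEIS2 rose by 1.83, FOXP1 by 1.07 and FOXP2 by 0.95 on the log2 scale. The 4 genes with few counts were SIX3, ISL1 and RXRG, with 4, 4 and 6 in all 2DCocu neuron-like cells, and ZNF503 with 1, so their fitted folds depend on the prior count and are not given.

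Between the flat arrangements, 2DCocu had more EBF1 (+1.99), RXRG (+1.67) and FOXP2 (+0.68) than 2DMono and less TAC1 (-1.14) and SIX3 (-1), 5 of 9 genes tested against 28.4% of all (16.1% higher, 12.3% lower). This comparison used the AcMor and Vehic tags, over which EBF1 and FOXP2 did not overlap. TAC1 lost its call without the second 2DMono AcMor tag and without the first 2DMono Vehic tag. Between the 3-D arrangements, TAC1 alone passed with edgeR, 1 of 10 against 1.39% of all genes (1.02% higher, 0.368% lower). With DESeq2, EBF1 (+1.01, adjusted p = 0.0172) and ZNF503 (+1.34, 0.0104) passed too. EBF1 also passed with edgeR without the first 3DFusi AcMor tag (adjusted p = 0.0241). TAC1 had 24 counts in the 3DMono tags used and was kept by the filter through 3DFusi, so its call is no support and no fold is given. Its level was 0.954 to 1.77 CPM in the AcMor and Vehic tags of 3DFusi and 0.0998 to 0.434 in those of 3DMono. Leaving out any of 3 3DMono tags, the first AcMor or either Vehic tag, gave adjusted p = 0.0539 to 0.0607. Same-numbered 3DFusi tags deviated together (correlation 0.146 to 0.615 in 9 pairs), so they are not fully independent, and p-values that compare 3DFusi with another arrangement may be too small.

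Treatments were compared with the Vehic group of the same arrangement, which the treatments share. In 2DCocu, FOXP2 was lower with AcCoc, at 309.7, 263.6, 187.8 and 186 CPM against 327.1, 298.8, 329.8 and 392.5 with Vehic. The groups overlapped at 1 pair of tags. The log2 fold change was -0.479 ± 0.135 (adjusted p = 0.0449), 1 of 9 genes where 6.1% of all genes passed (3.6% higher, 2.5% lower). Neuron-like cells were 24.4 to 31.5% of the AcCoc tags and 4.52 to 9.14% of the Vehic tags, and cluster 4, with its high FOXP2 level, was 12.3 to 17.2% of the AcCoc tags and 28.6 to 35.9% of the Vehic tags. The part of either in the difference was not tested. The call was lost in 9 of 12 fits without 1 tag (adjusted p = 0.0548 to 0.155), with a replicate block (0.0668) and in 1 fit over 4 arrangements (0.617). RXRG (-0.94, adjusted p = 0.0678) and FOXP1 (-0.45, adjusted p = 0.0806) did not pass.

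No gene of the set passed in the other treatment comparisons with the low-count filter. Without it, MEIS2 passed in 2DMono AcMor and 3DMono AcMor, EBF1 in 3DMono AcMor and ISL1 in 3DMono AcDop (edgeR, adjusted p = 0.00829 to 0.0404). The share of all genes passing without it is not given here. In 2DCocu AcMor, 0 of 9 genes passed against 0.975% of all genes. The 3DFusi AcCoc and AcMor comparisons called 0 of 10 members and 0 genes of any kind with edgeR. These fits had no replicate block although same-numbered 3DFusi tags deviated together, so their p-values may be too large. No member passed with the block either. In the fits without it, 393 and 177 of 23679 genes had an unadjusted p under 0.05, and DESeq2 called 1 and 0. The 2DMono AcDop and AcMor comparisons (0 of 8) had 467 and 1247 such genes of 19416, with 13 and 18 by DESeq2. For 3DMono AcDop and AcMor (0 of 9) they were 740 and 1925 of 22112, with 20 and 178 by DESeq2. With no differences, a fraction of 0.05 of genes would reach that unadjusted p on average. The 393, 177, 467 and 740 lie below this fraction, and 1247 and 1925 above it. These groups hold 2 to 4 tags each, and a missed call does not show that the levels were equal.

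The flat Proto cultures were compared each with the other 2, so the 3 comparisons share tags. 2DProto3Wu had more ISL1 (no fold is given, as 2DProto4Nic had 3 counts), SIX3 (+2.48) and TAC1 and less FOXP2 (-3.01), EBF1 (-1.68), ZNF503 (-1.58), PPP1R1B, FOXP1 (-0.98) and MEIS2 (-0.57), 9 of 10 against 26.8% of all genes (13.2% higher, 13.6% lower). 2DProto4Nic had more FOXP1 (+2.41), FOXP2 (+2.00), EBF1 (+1.56) and MEIS2 (+1.13) and less ISL1 (no fold, for the same reason), SIX3 (-1.75), RXRG and PPP1R1B, 8 of 10 against 32.6% (18% higher, 14.6% lower). 2DProto2Fjo had more PPP1R1B, RXRG, ZNF503 (+1.10) and FOXP2 (+1.01) and less FOXP1 (-1.43), SIX3 (-0.72) and MEIS2 (-0.57), 7 of 10 against 16.7% (9.28% higher, 7.43% lower). PPP1R1B, with 150, 16 and 20 counts in 2DProto2Fjo, 2DProto3Wu and 2DProto4Nic, was kept by the filter through 2DProto2Fjo alone, and TAC1 (12, 56 and 13) through 2DProto3Wu alone. ISL1 and RXRG (32 counts) did not reach it in 2DProto4Nic. Calls of these 4 genes are no support, and their folds are not given. Each value is against the average of 2 unlike cultures, and not every gene lay beyond both. In 2DProto3Wu, FOXP1 lay between the other 2, and MEIS2, PPP1R1B and TAC1 each overlapped 1 of them. In 2DProto4Nic, FOXP2 overlapped 2DProto2Fjo and PPP1R1B overlapped 2DProto3Wu. In 2DProto2Fjo, SIX3 lay between the other 2, FOXP2 overlapped 2DProto4Nic and MEIS2 overlapped 2DProto3Wu. With DESeq2, TAC1 in 2DProto3Wu (adjusted p = 0.0842) and PPP1R1B in 2DProto4Nic (adjusted p = 0.116) did not pass. Among the 6 fits without 1 tag, TAC1 in 2DProto3Wu lost its call without the second 2DProto3Wu tag (adjusted p = 0.502) and without the second 2DProto4Nic tag (adjusted p = 0.0586), and PPP1R1B in 2DProto4Nic lost it in 5. Calls of PPP1R1B, ZNF503 and MEIS2 in 2DProto3Wu and of MEIS2, SIX3 and ZNF503 in 2DProto2Fjo were also lost in 1 to 4 of these fits. The neuron-like cells differed between these cultures: in 2DProto3Wu they were 66.5 to 68% of a tag's cells and 99.7% of them were cluster 7, while in 2DProto2Fjo 87.2% of them were cluster 21, an excitatory-like cluster. The part of this makeup in the differences was not tested. PPP1R1B levels were 2.23 and 2.79 CPM in 2DProto2Fjo and 0.283 to 0.386 in the other 4 tags. The tags labelled 3DProto1For and 3DProto2Xia differed in 0 of 9 members, and in 0 genes of all with edgeR, with 1603 at an unadjusted p under 0.05 and 15 by DESeq2. Without the 2 tags closest to the other arrangement, EBF1 (+3.93), ZNF503 (+2.59), FOXP2 (+2.33) and FOXP1 (+0.96) were higher in 3DProto1For, 4 of 10 against 14.2%. This setting was chosen after seeing the data, and leaving out tags for their likeness to the other arrangement favours a difference, so these values are a description only.

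A list of 24 other striatal genes was read beside the 10. In 3DMono against 2DMono, 10 of 19 tested passed, 6 higher and 4 lower, where 37% of all genes passed. MEIS1 (+1.36), a paralog of MEIS2, and IKZF1 (+1.39), a zinc finger factor, were among the higher ones. PENK, the enkephalin precursor of the indirect population, ARPP21 (-1.98) and RGS9 (-1.28), a brake on G protein signalling, were among the lower ones. In 3DFusi against 2DCocu, 11 of 21 passed, 7 higher and 4 lower, close to the 48.3% of all genes, with SP9, a factor of the indirect population, TSHZ1 (+1.55), RARB (+0.978) and RGS9 (-0.989). PENK in 3DMono and SP9 in 2DCocu were under the low-count filter, so their folds are not given and their calls are no support. With AcCoc in 2DCocu, 4 of 17 passed, against 6.1% of all genes: RGS9 (-0.919), BCL11B (+0.872), ARPP21 (+0.786) and PTPN5 (+0.916), a striatum-enriched phosphatase. Excitatory-like cells were 23.2 to 30.2% of the AcCoc tags and 3.98 to 8.71% of the Vehic tags, and BCL11B had 442.9 CPM in that class against 139.6 in unnamed cells. The part of this makeup in these calls was not tested. In 3DFusi against 3DMono RGS9 (+1.23) was the 1 of 21 that passed, against 1.39% of all genes.

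In the Proto cultures PDE10A, a striatal phosphodiesterase, was higher in 2DProto4Nic (+4.01) and lower in 2DProto3Wu (-2.34) and 2DProto2Fjo (-1.66). PENK had 336 counts in 2DProto4Nic and 8 in 2DProto3Wu, and SP9 had 7 and 131, so each was under the low-count filter in 1 of them and no fold is given. The counts passing were 8 of 21 in 2DProto4Nic (3 higher, against 32.6% of all genes), 10 of 21 in 2DProto3Wu (5 higher, against 26.8%) and 11 of 21 in 2DProto2Fjo (7 higher, against 16.7%).

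The genes most alike to each member over the 17 groups of tags, by Pearson correlation of mean log2(CPM + 1) among genes with a mean of at least 1 CPM, are given as descriptions, since the groups share one pool and arrangement. MEIS2 was most like PDGFD (r = 0.944) and GPR39 (0.939). EBF1 was most like NDNF (0.881), CERCAM (0.877) and NR2F1 (0.875), and PPP1R1B most like ATXN7L1 (0.921), TMEM98 (0.868) and SLC17A7 (0.867), a glutamate transporter of excitatory neurons. TAC1 was most like NXPH1 (0.918), a leading gene of cluster 16. SIX3 (SLC39A3, 0.952), ISL1 (LYRM2, 0.936), ZNF503 (ZBTB4, 0.928), FOXP2 (COBLL1, 0.873) and FOXP1 (LINC01913, 0.871) had the given genes at the top, and for RXRG the most alike gene with a symbol was GALK1 (0.914). Between members, ISL1 with SIX3 (0.896) and EBF1 with ZNF503 (0.790) were the most alike, and FOXP2 with SIX3 the least, at -0.580.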

How the data were processed

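Single-cell RNA of H1-derived cultures was measured in 8 sublibraries of 1 pool. The deposited matrix holds estimated counts per gene and cell, made with Salmon 1.7.0 and alevin on hg38, with Seurat 4.1.1, per the submitters' processing notes; whether introns and strand were used is not given in the sources used here. Of its entries 54.3% are whole. All samples are one population, so culture tags, 46 in number, were grouped by name. Counts were summed per tag, rounded and tested with edgeR 4.0.16 (TMM, filterByExpr, robust quasi-likelihood, adjusted p under 0.05) in R 4.3.3; DESeq2 1.42.0, RLE scaling, no filter, doublet removal and leaving out each tag were alternatives. Whether each side of a comparison alone reached the filter's level was read too. The members and lists were chosen with earlier results of these data known. Named genes are the 10 members, up to 4 of the 24 other striatal genes with the lowest adjusted p, and the 3 genes most alike to each member, of which those at the top are given and some are not reported here. Cells were clustered (2000 variable genes without the members, 30 components, resolution 0.8, 42 clusters; leidenalg 0.10.2) and named by at least 3 markers and 40% of a list found in at least 10% of cells and 2-fold higher. Clusters 10, 31, 35 and 39 reached this for a list but stayed unnamed, by a further step not described here. Doublet scoring called 527 cells (1.2%), which were kept; 23.9% of simulated doublets passed its threshold. Tag depths were 3624668 to 58777176 counts. The scripts were tested on simulated data. Same-numbered 3DFusi tags deviated together (9 pairs, each correlation over 0.1), as found in the data; the labels give no pairing.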

Additional observations from a re-analysis of the deposited data

Results flagged for a closer look

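In 40 checks of 1 tag against the rest of a group of 4, 6 values in 5 tags lay far from the others, where chance gives about 1 in 20. SIX3 was 0.901 CPM in the third 2DCocu AcCoc tag against 2.62 to 2.96 in the other 3, and TAC1 was 0.811 there against 1.73 to 1.9. FOXP2 was 299 CPM in the first 2DCocu AcMor tag against 260 to 266. EBF1 was 194 CPM in the fourth 2DCocu AcMor tag against 121 to 131, and 219 in the fourth 2DCocu Vehic tag against 133 to 142. FOXP2 was 714 CPM in the third 3DFusi AcCoc tag against 221 to 277. The difference between 3-D and flat culture was not the same in the Mono arrangements as in 3DFusi with 2DCocu: the test of the difference between them gave -1.42 for SIX3 and -3.65 for TAC1 on the log2 scale, from fits chosen after seeing the data. The TAC1 value rests on 24 counts in the 3DMono tags, where the gene was under the low-count filter, and is a description only.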

How the results depend on the processing

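Over 1898 member values with 1 tag left out, 1824 kept their side of the threshold, 53 were no longer past it, 21 came past it and 0 changed sign while past it in either fit. Over 1239 values under the other alternatives, these were 1206, 9, 24 and 0. Among values past the threshold in neither fit, 105 and 16 changed sign, such as MEIS2 in 3DFusi AcCoc (0.255, and -0.36 with a replicate block) and RXRG there (0.333 and -0.136). Leaving out 1 tag gave 5 to 7 members called in 3DMono against 2DMono and 6 to 7 in 3DFusi against 2DCocu. Within neuron-like cells it gave 3 to 6 and 7 to 8. It gave 0 to 2 for 2DCocu AcCoc, 4 to 6 for 2DCocu against 2DMono, 0 to 2 for 3DFusi against 3DMono and 2 to 3 for the difference between differences. For the flat Proto comparisons it gave 4 to 7 (2DProto2Fjo), 6 to 9 (2DProto3Wu) and 7 to 8 (2DProto4Nic), and for 3DProto1For against 3DProto2Xia and the other treatments 0 to 0. Vehic tags alone gave 3 members in 3DMono against 2DMono, with fewer samples. Keeping all genes gave 9 members in 3DMono against 2DMono and 9 within neuron-like cells for 3DMono, 1 for 2DMono AcMor, 1 for 3DMono AcDop and 2 for 3DMono AcMor. The shares of all genes that passed in these fits are not given here, so the counts are no support. DESeq2 gave 3 for 2DCocu AcCoc, where FOXP1 and RXRG passed too, and 3 for 3DFusi against 3DMono. For 2DCocu AcCoc a replicate block and 1 fit over 4 arrangements each gave 0, and the cause was not tested. The block was run for treatment comparisons alone and changed no other member call there. Same-numbered tags had correlated deviations over 0.1 in each of 9 pairs of 3DFusi (0.146 to 0.615), but not over 0.1 in each pair of 2DCocu (-0.358 to 0.126), 2DMono (-0.138 to 0.153) or 3DMono (0.079 to 0.277, all above 0). Without the 2 tags closest to the other arrangement, 4 members passed between 3DProto1For and 3DProto2Xia. The share of cells with 4 or more members was 14.0% for entries of at least 1 and 4.83% in thinned cells, against 15.95%.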
